A study of Rattus norvegicus with 24 samples.

Results

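This report describes the livers of female rats gavaged with 3 µg/kg TCDD, set against livers of rats given the vehicle alone. The members were taken from the dose and treatment labels: 3 libraries at 3 µg/kg and 3 vehicle libraries, 6 of the 24 in the series. The other libraries belong to 6 further doses of the same compound, from 0.01 to 10 µg/kg, with 3 libraries each. The rats were Sprague-Dawley, an outbred stock, with a labelled age of 57 days. Those at 3 µg/kg received TCDD in sesame oil and the vehicle rats sesame oil, in both cases at intervals of 4 days up to day 28. Gavage and sesame oil were thus common to both groups, and no other agent or allele is given in the labels. The series calls the libraries biological replicates without saying whether the rats shared a litter or cage. The libraries were made from whole liver RNA. Fewer cells of a type and less RNA per cell therefore cannot be told apart in any value given here.

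TCDD is a chlorinated dioxin that binds the aryl hydrocarbon receptor, a ligand-activated transcription factor. The receptor moves to the nucleus when bound, pairs there with ARNT and binds DNA at dioxin response elements. In rodent liver it is best known for switching on cytochrome P450 enzymes of family 1 and enzymes that conjugate foreign compounds. Sustained exposure is also known to disturb lipid, bile acid, retinoid and glucose metabolism. By its title, the series concerns polyunsaturated fatty acid metabolism and eicosanoid synthesis in the liver.

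Counts are listed by Ensembl gene ID. None of the 26404 IDs could be paired with a gene name from the tables used here, so the number identified with certainty was 0. Which liver functions changed at 3 µg/kg is therefore not described, the labelled tissue was not checked against marker genes, and no sequence is shown. Values are given for 2 IDs that rose and 2 that fell, picked by fitted fold change, and for sets of IDs defined by level or by response. Levels are in CPM, counts scaled to a common library size by TMM, and are not corrected for gene length. They compare 1 ID between rats, not different IDs with each other, except where an ID's share of the counted reads is meant. Counts in genes numbered 12351063 to 15339605 per library at 3 µg/kg and 11866339 to 13522274 in vehicle.

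At 3 µg/kg, 992 IDs rose and 665 fell against vehicle. These were 7.94% and 5.32% of the 12496 IDs tested, or 13.3% together (edgeR quasi-likelihood test, Benjamini-Hochberg adjusted p below 0.05, with no minimum fold). The median log2 fold change of all tested IDs was -0.01. Changes of less than 2-fold made up 481 of the rises (48.5%) and 408 of the falls (61.4%). Fitted changes reached 4-fold in 167 of the rises and 77 of the falls, while 78 rises and 30 falls reached 8-fold. In 962 of the rises and 613 of the falls, the 3 libraries at 3 µg/kg lay wholly outside the range of the 3 vehicle libraries. Of all tested IDs, called or not, 14.9% lay wholly above vehicle in this sense and 12.3% wholly below.

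**Figure D1:**
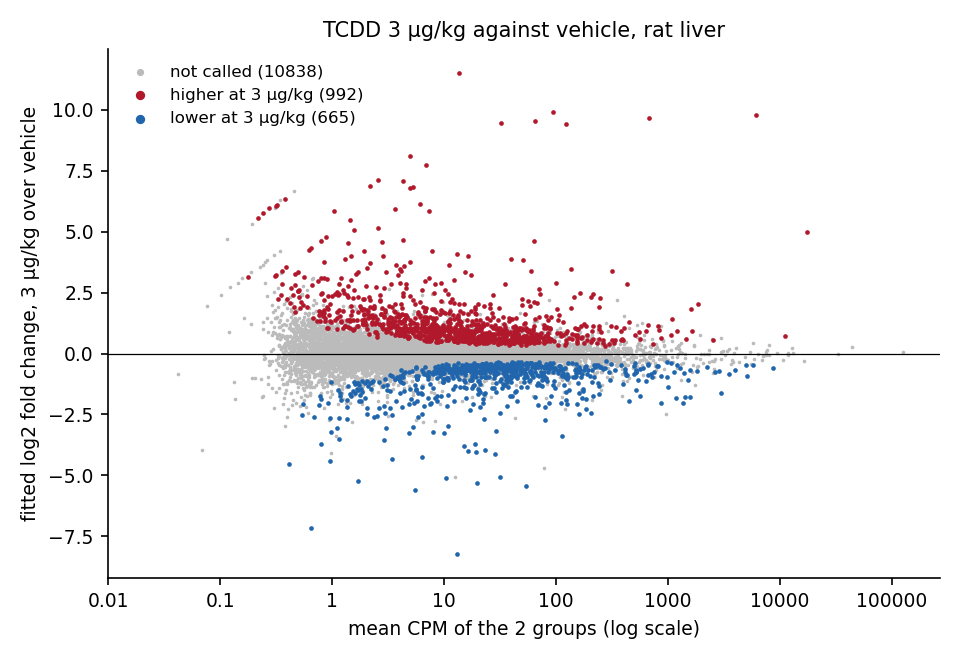
Fitted log2 fold change of each tested ID (3 µg/kg over vehicle, vertical axis) against the mean CPM of both groups (log axis), with called IDs in red (992 higher) and blue (665 lower). The 1 tested ID with no count in any of the 6 libraries is not drawn, and rises of at least 8-fold (78) outnumber falls of that size (30).

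The calls leaned differently by level. Among the 114 IDs with a mean over 1000 CPM in the 6 libraries, 11 rose (9.65%) and 23 fell (20.2%). Between 100 and 1000 CPM, 80 of 899 IDs rose (8.90%) and 107 fell (11.9%). Below that the rises were the larger number. Between 10 and 100 CPM, 468 of 5427 IDs rose (8.62%) and 368 fell (6.78%). Between 1 and 10 CPM, 365 of 4865 rose (7.50%) and 153 fell (3.14%). Under 1 CPM, 68 of 1191 rose (5.71%) and 14 fell (1.18%). The median log2 fold change of all tested IDs, called or not, also drifted with level. It was 0.16 under 1 CPM, 0.02 from 1 to 10, -0.03 from 10 to 100, -0.08 from 100 to 1000 and -0.12 over 1000 CPM. The part of this drift in the lean of the calls was not tested. A scarce ID could pass the low-count filter through its level at a dose, since libraries of all doses entered it. That favours rises, so nothing is read from the lean or the median under 1 CPM. Precision also changed with level: the median standard error of the log2 fold change was 0.58 under 1 CPM and 0.18 over 1000 CPM. The calls among scarce IDs were accordingly of larger size, with median log2 fold changes of 2.37 for rises and -2.56 for falls under 1 CPM, against 0.93 and -0.75 over 1000 CPM.

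The 100 most abundant IDs of the vehicle livers included 2 that rose and 25 that fell at 3 µg/kg, where 7.94% of all tested IDs rose and 5.32% fell. Choosing IDs by a high vehicle level in itself favours falls, so nothing is read from this difference. The median log2 fold change of those 25 falls was -0.78, and the largest was -2.04. Together the 100 IDs took 52.5% ± 1.54 of gene counts at 3 µg/kg and 56.2% ± 1.85 in vehicle (SD, n = 3 each). The ranges were 51.2% to 54.2% at 3 µg/kg and 54.3% to 58.0% in vehicle, and so did not overlap. No test is given here for the same reason. The 10 most abundant took 28.0% ± 1.18 at 3 µg/kg and 27.7% ± 1.53 in vehicle (SD, n = 3 each), and 1 of them fell, with a log2 fold change of -0.61. The count of 25 falls was 14 without 3 µg/kg replicate 3, 15 without vehicle replicate 2 and 14 in a fit of both groups alone.

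Of the 100 most abundant IDs at 3 µg/kg, 82 were also among the 100 most abundant in vehicle. The other 18 were new to that list, and 11 of them had risen by the test, where 7.94% of all tested IDs rose. Choosing IDs that rank high at 3 µg/kg and lower in vehicle in itself favours rises, so nothing is read from this count. One ID ranked 3rd at 3 µg/kg and 111th in vehicle. It held 33545, 34862 and 34152 CPM in the libraries at 3 µg/kg, against 1561, 866 and 844 CPM in the vehicle libraries. The groups were far apart and the spread at 3 µg/kg was small (edgeR adjusted p = 2.65e-10, log2 fold change 4.97, SE 0.279). It took 3.27% of gene counts at 3 µg/kg and 0.106% in vehicle. A further ID reached rank 9 at 3 µg/kg although it ranked 5364th in vehicle. Its libraries held 12843, 12110 and 11962 CPM at 3 µg/kg, against 19.1, 11.4 and 11.5 CPM in vehicle. An ID that was abundant in both groups ranked 6th at 3 µg/kg and 12th in vehicle. It rose by less, with 12144, 15700 and 13759 CPM at 3 µg/kg against 7246, 8534 and 9750 CPM in vehicle (edgeR adjusted p = 0.00831, log2 fold change 0.70, SE 0.166).

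The 992 IDs that rose took 12.3% ± 0.392 of gene counts at 3 µg/kg and 4.23% ± 0.260 in vehicle (SD, n = 3 each), values that the choice of IDs fixes. The IDs ranked 3rd and 6th at 3 µg/kg made up 4.60% ± 0.235 of gene counts at that dose and 0.932% ± 0.106 in vehicle. The other 990 made up 7.70% ± 0.162 at 3 µg/kg and 3.30% ± 0.172 in vehicle. Among those 990, the ID ranked 9th at 3 µg/kg alone took 1.18% at that dose and 0.00136% in vehicle. The 665 IDs that fell took 7.27% ± 0.347 at 3 µg/kg and 13.2% ± 0.257 in vehicle.

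Some of the rises started from little or no signal. In 169 of them the vehicle mean was below 1 CPM, and 10 of these passed 10 CPM at 3 µg/kg. In 7 the vehicle libraries held no count at all. A mean below 1 CPM at 3 µg/kg was found for 31 of the rises and 57 of the falls. Of the falls, 3 had been below 1 CPM in vehicle already, and 1 held no count in any library at 3 µg/kg. The number of all tested IDs meeting each condition is not given, so these counts are not shares of the tested IDs. Libraries of all doses entered the low-count filter, so an ID scarce in vehicle could be tested because of its level at a dose. An ID below 1 CPM in vehicle also has little room to fall. Nothing is therefore read from the 169 rises against 3 falls.

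The IDs named are ENSRNOG00000040208 and ENSRNOG00000026679, which rose, and ENSRNOG00000010725 and ENSRNOG00000010079, which fell. They head the order of fitted fold change among called IDs whose groups did not overlap and whose higher mean reached 5 CPM. That left 766 rises and 552 falls to choose from. The first place of ENSRNOG00000040208 is not shown by its counts, since it had none in vehicle and its fitted value is no measure of size.

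ENSRNOG00000040208 held 1007, 111 and 43 counts at 3 µg/kg (68.1, 9.69 and 3.43 CPM), against 0 counts in each of the 3 vehicle libraries. Counts were present in all 3 treated livers, at levels that differed widely, and replicate 1 set most of the mean of 27.1 ± 35.7 CPM (SD, n = 3). Since vehicle was at 0, the size is a lower bound against a floor of 3 counts per library, about 0.242 CPM. The mean of the 3 libraries was at least 112-fold higher (edgeR adjusted p = 7.84e-05 with all libraries). Without 3 µg/kg replicate 1 the mean was at least 27.1-fold higher (edgeR adjusted p = 1.48e-05). The lowest library at 3 µg/kg alone was at least 14.2-fold higher. From 0.01 to 0.3 µg/kg this ID held between 1 and 3 counts summed over each group. It was at 2.53 ± 0.627 CPM at 1 µg/kg and 5.23 ± 1.55 CPM at 10 µg/kg (SD, n = 3 each). For 3 over 1 µg/kg the log2 fold change of 3.42 (SE 0.729) missed the threshold (edgeR adjusted p = 0.0524). For 10 over 3 µg/kg it was -2.37 (SE 0.678, edgeR adjusted p = 0.0477), but the groups overlapped: the libraries at 10 µg/kg held 3.68 to 6.79 CPM, and those at 3 µg/kg lay on both sides of that range.

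ENSRNOG00000026679 held 207, 227 and 134 CPM at 3 µg/kg, against 0.0772, 0.160 and 0.339 CPM in vehicle. The vehicle values rested on 1, 2 and 4 counts, and the treated values on 3053, 2601 and 1682. The groups were separated by more than 2 orders of magnitude on the CPM scale (edgeR adjusted p = 8.93e-10, log2 fold change 9.90, SE 0.609). Without vehicle replicate 3 the log2 fold change was 10.54, a shift of 1.55 times. Its level climbed over the middle of the dose range, with 0.162 ± 0.106 CPM at 0.03 µg/kg, 1.09 ± 1.09 CPM at 0.1, 6.89 ± 3.25 CPM at 0.3 and 82.3 ± 28.2 CPM at 1 µg/kg. It stood at 189 ± 48.7 CPM at 3 and 170 ± 38.7 CPM at 10 µg/kg (SD, n = 3 each). Neither neighbouring step passed the test: 3 over 1 µg/kg gave a log2 fold change of 1.20 (SE 0.355, edgeR adjusted p = 0.252), and 10 over 3 µg/kg gave -0.16 (SE 0.349, edgeR adjusted p = 0.843).

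ENSRNOG00000010079 held 1.22, 3.32 and 2.79 CPM at 3 µg/kg, against 40.3, 135 and 140 CPM in vehicle. Vehicle replicate 1 stood well below the other 2, yet remained far above every treated liver (edgeR adjusted p = 2.48e-05, log2 fold change -5.45, SE 0.671). Means at the lower doses were 56.0 ± 12.5 CPM at 0.01, 75.2 ± 46.3 CPM at 0.03, 42.8 ± 17.3 CPM at 0.1, 27.1 ± 5.30 CPM at 0.3 and 20.4 ± 14.0 CPM at 1 µg/kg (SD, n = 3 each). For 3 over 1 µg/kg, where 0.312% of tested IDs passed, the log2 fold change was -3.08 (SE 0.638, edgeR adjusted p = 0.0332). Choosing this ID by its fall at 3 µg/kg favours such a value, so nothing is read from the call. For 10 over 3 µg/kg, where 5.29% of IDs passed, the value of -2.15 (SE 0.847) missed the threshold (edgeR adjusted p = 0.145).

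ENSRNOG00000010725 held 1, 7 and 0 counts at 3 µg/kg (0.0677, 0.611 and 0 CPM), against 33, 86 and 266 counts in vehicle (2.55, 6.90 and 22.5 CPM). The groups did not overlap, but the vehicle livers themselves covered a wide range, and the treated level rested on 8 counts in all (edgeR adjusted p = 0.0313, log2 fold change -5.61, SE 1.67). The call ended when any 1 of 5 libraries was left out. Leaving out 3 µg/kg replicate 1, 2 or 3 gave an edgeR adjusted p of 0.094, 0.0606 or 0.11. Leaving out vehicle replicate 2 or 3 gave 0.0531 or 0.124. The size moved as well, to a log2 fold change of -7.84 without 3 µg/kg replicate 2 and -4.44 without vehicle replicate 3. The wide spread was also present at low doses, with 3.75 to 60.8 CPM at 0.01 µg/kg and 1.49 to 81.0 CPM at 0.1 µg/kg. At 1 µg/kg the libraries held 0.239 to 0.798 CPM and at 10 µg/kg 0.0580 to 0.187 CPM.

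**Figure D2:**
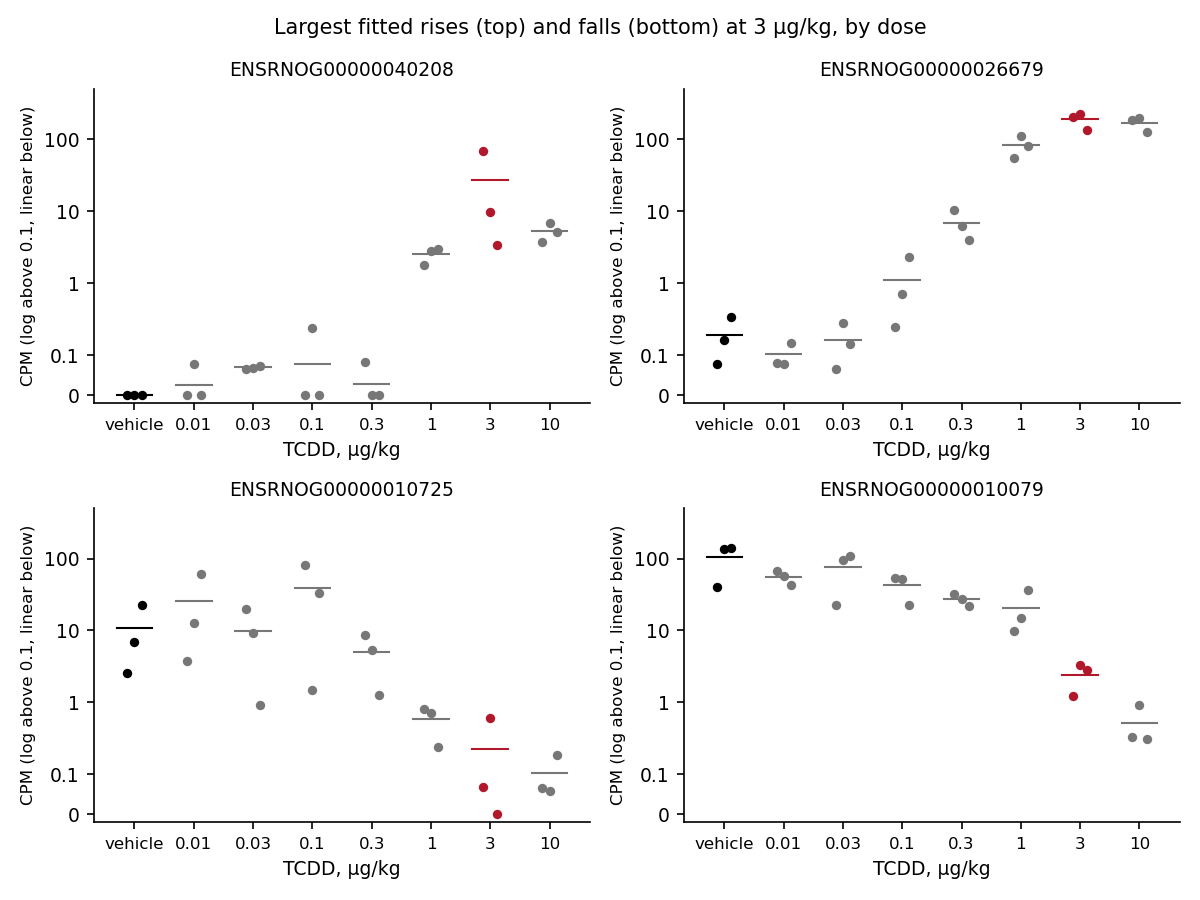
CPM of the 2 named IDs that rose (top) and the 2 that fell (bottom) in all 24 libraries by TCDD dose; each point is 1 liver, bars are group means (n = 3), and the axis is logarithmic above 0.1 CPM and linear below. ENSRNOG00000026679 stood at 134 to 227 CPM at 3 µg/kg (red) against at most 0.339 CPM in vehicle (black), and ENSRNOG00000010079 at 1.22 to 3.32 CPM against at least 40.3 CPM.

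Requiring separated groups mattered for the falls. Of the called IDs, 30 rises and 52 falls overlapped with vehicle in at least 1 library. The largest fitted fall of all was among them, with 1, 2 and 0 counts at 3 µg/kg against 633, 0 and 343 in vehicle. One vehicle liver was thus as low as the treated livers (edgeR adjusted p = 0.0333, log2 fold change -8.22, SE 2.49). Conversely, 76 IDs had a fitted change of at least 4-fold without being called, 46 of them higher and 30 lower at 3 µg/kg. In 42 of these the mean of the higher group was below 1 CPM, and in 31 the groups overlapped.

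The other doses lay outside the contrast that called the IDs, although their libraries entered the filter, the scaling and the spread estimate of the same fit. The summed share of the 992 IDs that rose was 5.16% ± 0.386 of gene counts at 0.01 µg/kg, 5.54% ± 0.191 at 0.03 and 6.60% ± 0.266 at 0.1 µg/kg. It was 7.85% ± 0.733 at 0.3, 10.1% ± 0.204 at 1 and 13.3% ± 0.526 at 10 µg/kg (SD, n = 3 each). The livers at 1 µg/kg held 9.92% to 10.3% and those at 10 µg/kg 12.8% to 13.9%. The share at 3 µg/kg is not ranked among these, since the choice of IDs raises it. The 665 IDs that fell took 12.3% ± 1.00 at 0.01, 11.7% ± 0.647 at 0.03, 11.6% ± 0.812 at 0.1, 11.1% ± 1.12 at 0.3 and 9.35% ± 0.446 at 1 µg/kg, and then 6.69% ± 0.325 at 10 µg/kg. The ranges of the lowest 4 doses overlapped one another. They are not set against vehicle, whose share the choice of IDs raises.

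**Figure D3:**
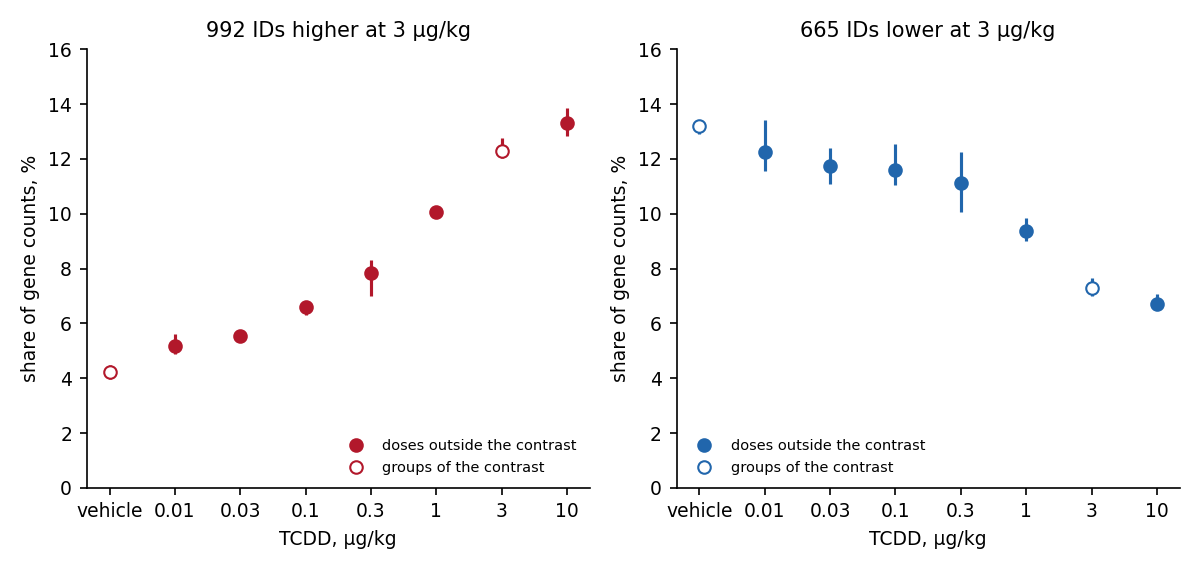
Share of gene counts (%) taken by the 992 IDs higher (left) and the 665 IDs lower (right) at 3 µg/kg, by TCDD dose; points are group means and lines the lowest to highest of 3 libraries, with open points for the groups of the contrast that chose the IDs. Among the filled points the summed share of the risers goes up at every dose, reaching 13.3% at 10 µg/kg, and that of the fallers goes down to 6.69%. Abundant IDs weigh most in these sums.

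A comparison of 10 with 1 µg/kg shares no library with either group. In it 560 IDs were higher (4.48% of those tested) and 618 lower (4.95%) at 10 µg/kg. Of the 992 IDs that rose at 3 µg/kg, 231 (23.3%) were higher and 9 (0.907%) lower at 10 than at 1 µg/kg. Of the 665 that fell, 195 (29.3%) were lower and 3 (0.451%) higher. Among the 10839 IDs not called at 3 µg/kg, 3.01% were higher and 3.82% lower. The median log2 fold change of 10 over 1 µg/kg was 0.38 for the IDs that rose, -0.41 for those that fell and -0.01 for those not called. The libraries at 10 µg/kg stood apart in the summary row for alignments that were not unique, which enters no gene count. This row made up 29.3% to 35.0% of a table's total there (mean 32.0% ± 2.85), against 22.4% ± 1.13 at 1 µg/kg (SD, n = 3 each). The part of this in the values at 10 µg/kg given here and above was not tested. IDs called at 3 µg/kg were called here in the matching direction several times as often as the tested IDs as a whole. Both comparisons used the same estimate of each ID's spread, so that an ID of small spread is called more readily in each. Its part in these counts was not tested.

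Farther down the dose range fewer IDs were called in either direction. For 1 over 0.01 µg/kg, again with no shared library, 87 IDs were higher (0.696%) and 26 lower (0.208%). The IDs that rose at 3 µg/kg accounted for 68 of those 87, and the IDs that fell for 21 of those 26. None of either set went the opposite way by the test. The medians were 0.31 for the IDs that rose and -0.21 for those that fell. As a share of each set these were 6.85% of the rises and 3.16% of the falls. Single libraries moved both shares by more than 1.5 times: that of the rises was 4.44% without 1 µg/kg replicate 2 and 4.03% without 0.01 µg/kg replicate 1. Omitting 1 µg/kg replicate 2 or 3 gave 0.602% or 0.451% of the falls, and omitting 0.01 µg/kg replicate 1 gave 0.752%. The share of all tested IDs called in those fits is not given. A loss of matching calls therefore cannot be told from a loss of all calls.

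**Figure D4:**
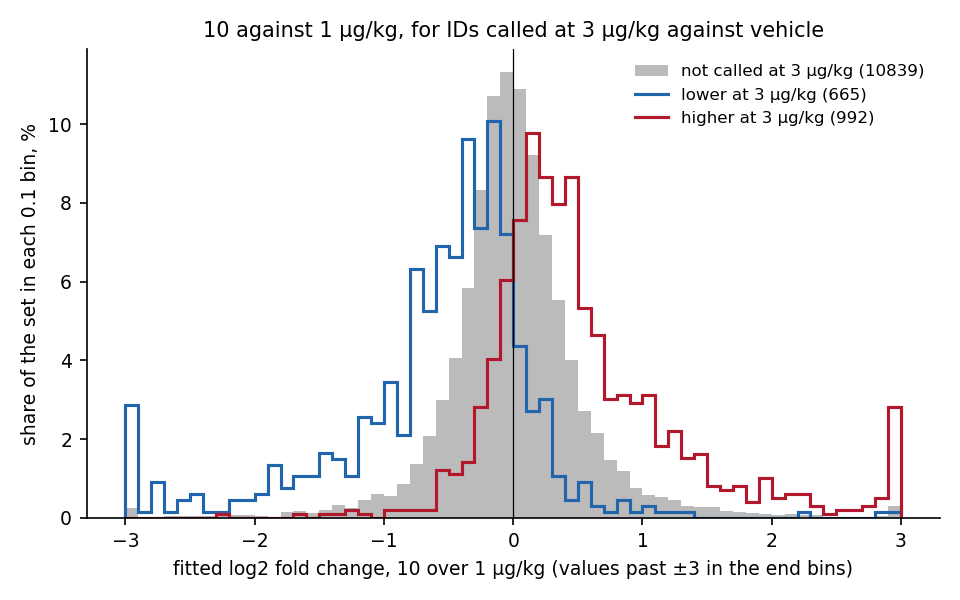
Distribution of the fitted log2 fold change of 10 over 1 µg/kg (horizontal axis, bins of 0.1) as a percentage of each set, for IDs higher (red, 992), lower (blue, 665) and not called (grey, 10839) at 3 µg/kg against vehicle; values past 3 in size are in the end bins. Most of the red set lies to the right of 0 (81.9%, median 0.38) and most of the blue to the left (85.3%, median -0.41), and both cross 0.

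The number of calls at 3 µg/kg depended on individual livers more than their direction did. Omitting vehicle replicate 2 left 812 calls and omitting 3 µg/kg replicate 3 left 935. Omitting any 1 of the other 4 libraries left between 1178 and 1474. The 812 calls were 517 rises, of which 505 were among the 992, and 295 falls, of which 279 were among the 665. The 935 were 613 rises, 602 of them among the 992, and 322 falls, 299 of them among the 665. Without 3 µg/kg replicate 2 the falls alone numbered 415. A fit of both groups without the other doses called 757 IDs, with 461 of its 477 rises and 257 of its 280 falls among those reported. Rises made up 59.9% of the calls with all libraries and 55.5% to 65.6% with 1 library left out.

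Both libraries that cost the most calls were the closest to the other livers of their group. The root mean square distance of log2 CPM from the mean of the other 2 livers was 0.536, 0.604 and 0.462 for 3 µg/kg replicates 1, 2 and 3, and 0.606, 0.475 and 0.543 for vehicle replicates 1, 2 and 3. The part this distance plays in the number of calls was not tested. The groups varied to a like degree, with a median SD of log2 CPM per ID of 0.272 at 3 µg/kg and 0.248 in vehicle.

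**Figure D5:**
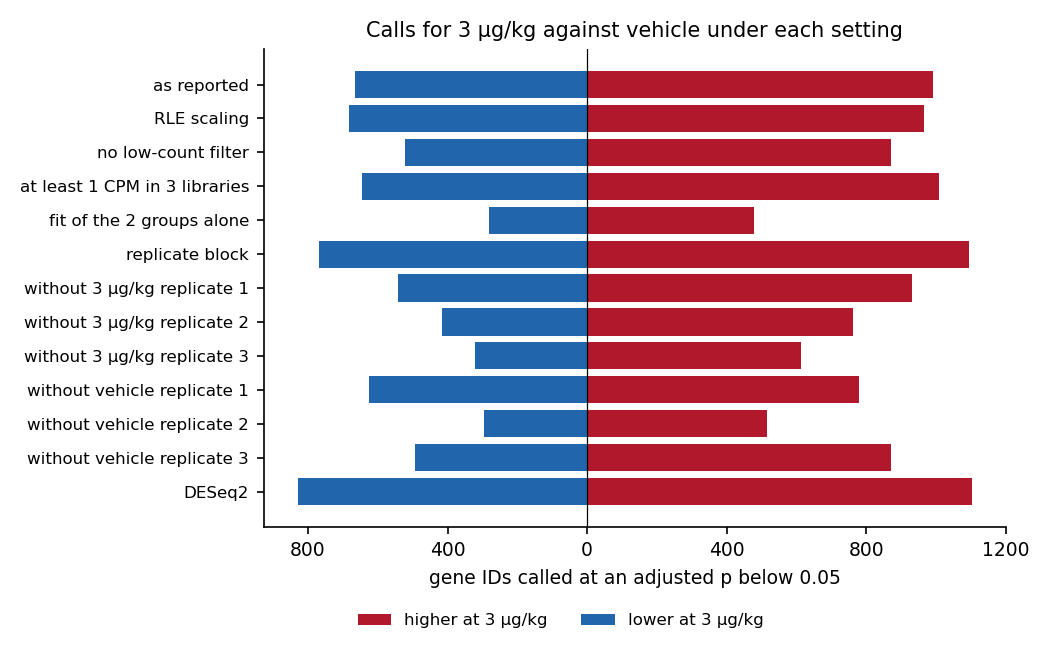
Number of IDs called higher (red, right of 0) and lower (blue, left of 0) at 3 µg/kg against vehicle, at an adjusted p below 0.05, for the reported fit and each alternative. The shortest bars belong to the fit of both groups alone (757 calls) and to the fit without vehicle replicate 2 (812 calls).

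The summary row for alignments that were not unique made up 22.1% ± 0.927 of a table's total at 3 µg/kg and 24.1% ± 0.797 in vehicle. The summary row for no feature made up 14.3% ± 0.597 at 3 µg/kg and 15.8% ± 1.60 in vehicle (SD, n = 3 each).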

How the data were processed

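The authors deposited 1 table of raw counts per library, whole numbers per Ensembl gene ID. Per the submitters' processing notes, the tools were DESeq, HTSeq 0.6.1, SAMtools 0.1.2, TopHat 1.4.1, cutadapt 1.4.1 and FastQC 0.11.2, named here in no order of use. Settings, genome build, annotation and strand setting are not given in the sources used here. Counts of overlapping, antisense or near-identical genes are therefore uncertain. Per the labels' protocols, RNA was extracted with TRIzol and libraries were made with an Illumina kit. The 5 summary rows of each table, 35.8% to 41.1% of its total in these 6 libraries, entered neither library sizes nor tests. No row of the RefSeq table of 47357 genes (GRCr8) held an Ensembl ID, so 39 gene and marker lists prepared by symbol could not be applied, and the fallback rule for named IDs was used (2 rises and 2 falls).

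Counts were analysed with edgeR 4.0.16 in R 4.3.3: filterByExpr, TMM scaling (factors 0.898 to 1.11), and a quasi-likelihood fit of 8 dose groups over all 24 libraries (16 residual degrees of freedom), so that the groups shared 1 estimate of the spread. The SE is the log2 fold change divided by the square root of F. The procedure was tested on simulated counts. Replicate pairs differed by far more than sampling noise (chi-square per degree of freedom 22.0 to 53.1). As nothing says how the rats were housed or bred, p-values measure the spread between these samples only, part of which may be technical. Replicate numbers did not pair the groups (same-numbered deviations correlated at -0.01, 0.10 and -0.01). Intervals and floors cover counting error only. The group, the lists and the tests were chosen with earlier results of these data known. The comparisons on libraries of other doses were added after the data were seen. DESeq2 1.42.0 was an alternative.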

Additional observations from a re-analysis of the deposited data

How the results depend on the processing

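Of 12 alternatives for 3 µg/kg against vehicle, RLE scaling, no low-count filter, a minimum of 1 CPM in 3 libraries, the replicate block and DESeq2 kept the count of 1657 calls within 1.5 times (1391 to 1934), and RLE and TMM scaling differed little (median log2 fold change -0.01 under both). With the replicate block, 1863 IDs were called, 1096 higher and 767 lower. The numbers were not found to pair the groups: 1 of the 3 livers at 3 µg/kg, replicate 2, correlated best with its own number in vehicle. A fit of both groups alone called 757 (477 higher, 280 lower), on fewer libraries. Leaving out 1 library gave 812 to 1474 calls, 517 to 931 higher and 295 to 625 lower. The 100 most abundant vehicle IDs held 14 to 29 falls and 0 to 5 rises over all alternatives. ENSRNOG00000026679, ENSRNOG00000010079 and ENSRNOG00000040208 were called under all 12, with highest adjusted p of 6.71e-06, 0.00131 and 0.0339. ENSRNOG00000010725 was called under 7 (adjusted p 0.000808 to 0.124, log2 fold change -7.84 to -4.44). Its lowest adjusted p came from DESeq2. The shares called for 10 over 1 µg/kg ranged from 16.1% to 26.0% of rises and from 22.3% to 31.8% of falls. For 1 over 0.01 µg/kg the share of falls was 6.02% by DESeq2 and 4.80% without the filter. The shares of all tested IDs called under these alternatives are not given. Depth limits IDs below about 0.242 CPM, the level of 3 counts in a vehicle library.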
